A study of Rattus norvegicus with 105 samples.

Results

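Rat hepatocytes exposed to nitroethane at 10 mM were set against rat hepatocytes exposed to benzo[a]pyrene at 50 µM, and each exposure was also set against culture medium and against DMSO. The 6 exposed libraries, 3 of nitroethane (NE) and 3 of benzo[a]pyrene (BaP), were chosen by their labels from 105 libraries in the series, and 3 DMSO and 3 medium libraries of the same set bring the comparison to 12. The NE group was given nitroethane, a nitroalkane, at 10 mM, the highest concentration of its series. The BaP group was given 50 µM benzo[a]pyrene, a polycyclic aromatic hydrocarbon that the labels name as the reference activator of the aryl hydrocarbon receptor. The medium group was given culture medium alone, and the DMSO group was given the solvent, titled 0.5 in the labels and described as 0.2% in the protocol. What all 4 groups share is the cell source and the time: primary hepatocytes of female Sprague-Dawley rats, bought as a single lot, plated on collagen in 96-well plates and exposed for 24 h. The labels call the 3 libraries of a group biological replicates, but all cells came from that lot, so a p-value here speaks of well-to-well spread alone, with no measure of differences between animals. Titles write the NE concentration with µM and the protocol with mM, and the protocol's unit was taken. Neither source says whether the NE wells held DMSO, which is why each exposure was tested against both controls. The 3 wells of each group sat side by side, and among the 4 groups each had a different plate row. Medium, DMSO and BaP shared the same plate columns, and NE sat in other columns. Exposure and plate row therefore cannot be told apart, and neither can NE and plate column. The concentrations differ, in mM for NE and in µM for BaP, so the compounds are not compared for potency.

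RNA was measured with TempO-Seq, an assay that ligates 2 neighbouring oligonucleotides on their target RNA and counts the ligated pairs by sequencing. The level of a probe is given as CPM, the usual scaling of a count by the total of its library. Levels of different probes are not compared with each other, because each probe captures its RNA with its own efficiency. A change is a log2 difference from edgeR's quasi-likelihood test with its standard error (SE), and a call means an adjusted p below 0.05 after Benjamini-Hochberg correction across the 11896 probes tested. All adjusted p-values in the text are of that kind.

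As background, the aryl hydrocarbon receptor (AhR) is a cytosolic transcription factor that binds planar aromatic molecules, moves to the nucleus with its partner ARNT and switches on the CYP1 cytochrome P450 genes and a small battery of conjugating and aldehyde-oxidising enzymes. NRF2 is released from KEAP1 by electrophiles and oxidants and drives glutathione and quinone-reducing enzymes, and several of its targets are shared with AhR. The unfolded protein response is a separate route, in which sensors in the endoplasmic reticulum (ER) raise chaperones through ATF6 and XBP1 when protein folding falls behind. Liver is the main site of drug oxidation and of plasma protein secretion, so all these routes are active in hepatocytes.

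The promoters below, from RefSeq for assembly GRCr8, are printed because their genes carry the contrast between the exposures: Cyp1b1 lay furthest below BaP in NE, and Hspa5, Creld2 and Hsp90b1 were among the 10 furthest above BaP once a library with raised background was left out. Each runs 5′ to 3′ along the gene from 250 bases before to 50 bases after the annotated start. Capitals mark matches on either strand to GCGTG, the core of the element bound by AhR, in Cyp1b1, and to the ER stress response element (ERSE), which is CCAAT, any 9 bases and CCACG, in the other 3. Cyp1b1 lies on the plus strand at chr6:21094315-21094614, Hspa5 on the plus strand at chr3:38452766-38453065, Creld2 on the plus strand at chr7:121789134-121789433 and Hsp90b1 on the minus strand at chr7:23012244-23012543.
Cyp1b1: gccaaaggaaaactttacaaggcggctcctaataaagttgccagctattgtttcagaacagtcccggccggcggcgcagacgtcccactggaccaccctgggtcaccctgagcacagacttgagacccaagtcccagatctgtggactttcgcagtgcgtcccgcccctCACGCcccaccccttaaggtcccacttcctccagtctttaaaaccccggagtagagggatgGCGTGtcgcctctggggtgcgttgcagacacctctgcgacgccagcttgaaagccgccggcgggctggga
Hspa5: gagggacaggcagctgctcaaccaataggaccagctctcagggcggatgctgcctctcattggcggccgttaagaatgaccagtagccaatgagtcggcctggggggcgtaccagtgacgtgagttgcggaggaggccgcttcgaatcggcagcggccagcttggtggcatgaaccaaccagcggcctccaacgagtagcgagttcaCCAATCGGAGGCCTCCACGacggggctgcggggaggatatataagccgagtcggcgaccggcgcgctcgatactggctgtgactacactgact
Creld2: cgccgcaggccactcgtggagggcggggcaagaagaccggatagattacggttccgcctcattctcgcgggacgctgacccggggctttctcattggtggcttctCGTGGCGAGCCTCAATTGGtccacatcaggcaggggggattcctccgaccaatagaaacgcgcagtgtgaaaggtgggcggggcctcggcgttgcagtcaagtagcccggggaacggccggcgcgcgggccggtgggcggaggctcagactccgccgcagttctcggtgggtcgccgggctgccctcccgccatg
Hsp90b1: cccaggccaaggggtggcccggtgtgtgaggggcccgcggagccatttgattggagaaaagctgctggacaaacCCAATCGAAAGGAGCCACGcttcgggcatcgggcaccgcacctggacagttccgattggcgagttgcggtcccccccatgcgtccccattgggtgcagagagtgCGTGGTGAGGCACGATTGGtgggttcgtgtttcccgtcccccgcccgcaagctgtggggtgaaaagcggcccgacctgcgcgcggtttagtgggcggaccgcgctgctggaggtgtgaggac
The GCGTG core is common, present in 9939 of 33469 RefSeq promoters of this length (29.7%), while the ERSE was found in 22 of them (0.0657%). An ERSE followed by C also holds the GCGTG core on the opposite strand, so the motifs can overlap. A match describes letters and not a bound site.

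Library totals ran from 7510284 to 9011301 counts, and 13477 to 13820 probes had a count in 11 of the 12 libraries. The exception was NE replicate 2, with 21627. Of 5935 probes at 0 in all 11 other libraries, 5421 had a count there, with a median of 12 counts or 1.6 CPM, and these made up 1.21% of the library. Separately, 202 probes stood at 10 CPM or more in NE replicate 2 and at over 5 times the highest of the other 11 libraries, holding 5.85% of its counts. A low level in that library is therefore less certain than in the others, and values without it are given for the comparisons that turn on it. BaP replicate 3 also differed from its group by more than replicates 1 and 2 differed from each other (chi-square per degree of freedom 23.45 and 18.03, against 4.305). No 2 libraries of a group agreed within counting error, so none was counted as a copy.

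NE and BaP differed at 3697 of 11896 probes (31.1%), of which 1768 (14.9%) were higher in NE and 1929 (16.2%) lower. The median over all probes was 0.015, which the TMM scaling sets near 0, so a shift of all genes together cannot be seen in these values. Against medium NE changed 4669 probes (39.2%), 2346 up and 2323 down, and against DMSO it changed 4007 (33.7%), 1968 up and 2039 down. BaP changed fewer: 564 probes against DMSO (4.74%), 281 up and 283 down, and 1414 against medium (11.9%), 705 up and 709 down. All these comparisons share a single estimate of the spread, and without NE replicate 2 the BaP count against DMSO was 968. It was 305, 316, 336, 367 and 372 when DMSO replicate 2, BaP replicate 2, DMSO replicate 3, DMSO replicate 1 or BaP replicate 1 was left out, so its size rests on single libraries more than the NE counts do. The BaP count against medium was 2207 without NE replicate 2, 903 without BaP replicate 2 and 877 without medium replicate 3. Medium and DMSO themselves differed at 389 probes (3.27%), 135 higher and 254 lower in medium. That count was 745 without NE replicate 2, 158 and 184 without DMSO replicate 1 or 2, and 216, 241 and 150 without medium replicate 1, 2 or 3.

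The AhR battery was the sharpest point of separation. All 7 tested probes of the AhR target list were lower in NE than in BaP, with a median log2 difference of -3.36, against 16.2% of all probes lower. All 7 were higher in BaP than in DMSO (median 5.13, against 2.36% of all probes higher) and higher than in medium (median 4.65, against 5.93% of all probes). In NE the same list was split: Cyp1a1 and Nfe2l2 were up against both controls, Cyp1a2 was down against both, Cyp1b1 was down against medium and not called against DMSO, Aldh3a1 was down against DMSO and not called against medium, and Ahrr and Tiparp were not called against either.

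**Figure D1:**
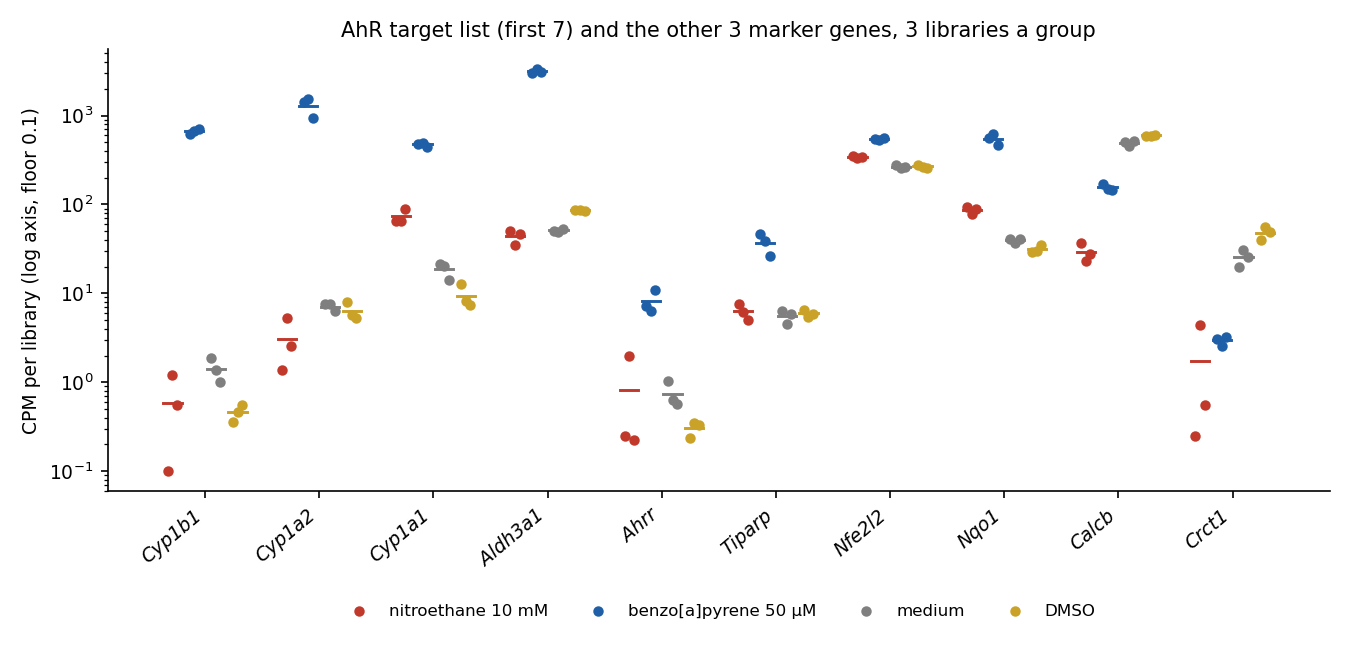
Level in CPM (log axis) of the 7 AhR list probes and of Nqo1, Calcb and Crct1 in each library of NE 10 mM, BaP 50 µM, medium and DMSO. Points are libraries, the bar is the mean of 3, and values under 0.1 CPM are drawn at 0.1. Cyp1b1, Cyp1a2 and Aldh3a1 stand high in BaP alone, Cyp1a1 and Nqo1 are raised in both exposures, and Calcb and Crct1 are lowered in both.

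Cyp1a1, the cytochrome P450 most used as a readout of AhR, had 65.5, 64.7 and 89.9 CPM in NE, 481, 497 and 445 CPM in BaP, 21.2, 20.5 and 14.1 CPM in medium, and 12.7, 8.18 and 7.36 CPM in DMSO. None of the 4 groups overlapped, and NE lay between the controls and BaP. NE exceeded medium by 1.99 ± 0.21 (log2, SE; adjusted p = 4.91e-07) and DMSO by 2.94 ± 0.22 (adjusted p = 1.41e-08). BaP exceeded DMSO by 5.6 ± 0.24 (adjusted p = 7.98e-12) and medium by 4.65 ± 0.22 (adjusted p = 6.03e-11), and NE was 2.66 below BaP (log2 -2.66 ± 0.2, adjusted p = 1.42e-08). Medium and DMSO also differed, by 0.94 ± 0.22 with medium the higher (adjusted p = 0.0236), so the size of the NE effect depends on the control.

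Cyp1a2, the constitutive liver member of the same family, went opposite ways. It had 1.36, 5.33 and 2.55 CPM in NE, 1410, 1540 and 931 CPM in BaP, 7.54, 7.52 and 6.26 CPM in medium, and 8.05, 5.64 and 5.35 CPM in DMSO. All NE libraries lay below all control libraries, and the highest of them was replicate 2. NE was lower than medium by log2 -1.24 ± 0.33 (adjusted p = 0.00665) and than DMSO by -1.12 ± 0.33 (adjusted p = 0.0158), whereas BaP was higher than DMSO by 7.62 ± 0.31 (adjusted p = 3.6e-11). Without NE replicate 2 the NE change was -1.75 against medium (adjusted p = 0.01) and -1.63 against DMSO (adjusted p = 0.0174).

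Cyp1b1, another CYP1 enzyme that is expressed mainly outside the liver, had 0, 1.2 and 0.555 CPM in NE, 616, 677 and 697 CPM in BaP, 1.86, 1.38 and 1.02 CPM in medium, and 0.355, 0.461 and 0.558 CPM in DMSO. It was near the limit of counting in every library except those of BaP. The NE-to-BaP difference was log2 -10.13 ± 0.3 (adjusted p = 2.07e-14), or -10.98 without NE replicate 2. Aldh3a1, an aldehyde dehydrogenase of the AhR battery, had 49.9, 35.4 and 46.1 CPM in NE, 3010, 3310 and 3080 CPM in BaP, 50.3, 49.5 and 53.2 CPM in medium, and 87.6, 86.2 and 83.6 CPM in DMSO. NE was not called against medium (log2 -0.2 ± 0.17, adjusted p = 0.373) and was below DMSO by -0.99 ± 0.17 (adjusted p = 0.000126). The controls themselves differed (medium minus DMSO -0.79 ± 0.17, adjusted p = 0.00825).

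The feedback genes of the receptor moved in BaP. Ahrr, the AhR repressor, had 0.248, 2 and 0.222 CPM in NE, 7.26, 6.29 and 10.9 CPM in BaP, 1.04, 0.626 and 0.569 CPM in medium, and 0.237, 0.346 and 0.335 CPM in DMSO. Its difference between NE and BaP was log2 -3.36 ± 0.58 (adjusted p = 0.00018), or -4.93 without NE replicate 2. Tiparp, a poly(ADP-ribose) polymerase induced by AhR that limits its action, had 7.68, 6.12 and 4.99 CPM in NE, 46.7, 39.1 and 26 CPM in BaP, 6.26, 4.51 and 5.92 CPM in medium, and 6.51, 5.41 and 5.91 CPM in DMSO. Tiparp in NE overlapped the controls, with adjusted p = 0.632 against medium and 0.922 against DMSO, and was log2 -2.55 ± 0.24 below BaP (adjusted p = 1.52e-07). Nfe2l2, which encodes NRF2, had 354, 334 and 345 CPM in NE, 550, 531 and 563 CPM in BaP, 278, 258 and 265 CPM in medium, and 279, 263 and 260 CPM in DMSO. Its rise in NE was small, 0.38 against medium (adjusted p = 0.0239) and 0.33 against DMSO (adjusted p = 0.0489), next to 0.97 in BaP against DMSO (adjusted p = 5.51e-05). The GCGTG core stood in 4 of the 6 promoters of the list found in RefSeq (Ahrr, Tiparp, Cyp1b1 and Ugt1a6). Over the panel, probes whose promoter held it were called higher in BaP than in DMSO in 2.27% of cases and probes whose promoter did not in 2.35%, so the letters alone did not mark the genes that rose.

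The size of the effects was also compared with each exposure set against its own control, NE against medium and BaP against DMSO. These effects differed at 2374 probes (20%), with the NE effect higher at 1120 (9.41%) and lower at 1254 (10.5%). With the controls swapped they differed at 1804 (15.2%), higher at 771 (6.48%) and lower at 1033 (8.68%). All 7 AhR probes had a lower effect in NE with the first choice of controls (median -4.56) and 6 of them with the other (median -2.68). For Cyp1a1 the difference in effect was -3.6 ± 0.3 (adjusted p = 1.14e-07) and -1.71 ± 0.3 (adjusted p = 0.000553), so both choices gave a smaller rise in NE. For the ER chaperone gene Hspa5 it was 3.81 ± 0.22 (adjusted p = 3.83e-10) and 2.11 ± 0.22 (adjusted p = 1.08e-06).

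To find changes the exposures shared, calls were intersected only between comparisons with no library in common. NE against medium was set beside BaP against DMSO: 135 probes were up in both, which is 5.75% of the NE list and 48.0% of the BaP list, and 174 were down in both, 7.49% and 61.5% of the lists. Opposite calls were fewer, 40 up in NE and down in BaP (1.71% and 14.1%) and 44 down in NE and up in BaP (1.89% and 15.7%). Of all probes 19.7% were up and 19.5% down in NE against medium, and 2.36% up and 2.38% down in BaP against DMSO. The opposite shares lay below these, and the overlaps were not tested against chance. With the controls swapped, NE against DMSO beside BaP against medium, 286 were up in both (14.5% and 40.6% of the lists) and 362 down in both (17.8% and 51.1%). Opposite calls were 62 up in NE with BaP down (3.15% and 8.74%) and 108 down in NE with BaP up (5.3% and 15.3%). Of all probes 16.5% were up and 17.1% down in NE against DMSO, and 5.93% up and 5.96% down in BaP against medium. Called in all 4 comparisons were 94 probes up in both exposures, 137 down in both, 16 up in NE and down in BaP, and 19 down in NE and up in BaP. These 4 counts also rest on single libraries. The 94 became 153 without NE replicate 2, 62 and 57 without BaP replicate 1 or 2, and 61 and 56 without DMSO replicate 2 or 3. The 137 became 237 without NE replicate 2, 86 and 75 without BaP replicate 1 or 2, and 74 and 84 without DMSO replicate 2 or 3. The 16 became 8 and 10 without BaP replicate 2 or 3, 9 without medium replicate 1 or 2, and 7 and 10 without DMSO replicate 2 or 3. The 19 became 32 without NE replicate 2, 12 without BaP replicate 2, 10 without medium replicate 1, and 8, 9 and 12 without DMSO replicate 1, 2 or 3. The pairing of NE against medium with BaP against DMSO moved likewise. Its 135, 174, 40 and 44 became 208, 303, 66 and 80 without NE replicate 2, 83, 91, 22 and 27 without BaP replicate 2, and 87, 90, 19 and 24 without DMSO replicate 2. Its rises and falls in both were 77 and 100 without DMSO replicate 3 and 89 and 104 without BaP replicate 1, and its opposite calls were 23 and 24 without DMSO replicate 1. With the controls swapped, the 286 became 185 without BaP replicate 2 and 181 without medium replicate 3, and the 362 became 239 without BaP replicate 2. The 62 became 130 without NE replicate 2, 38 without BaP replicate 2, 41 and 37 without medium replicate 1 or 2, and 41 without DMSO replicate 2, and the 108 became 71 without medium replicate 1. The genes described next as members of these groups were called in all 4 comparisons, so their presence there is a selection made on the same levels. For the groups up or down in both, the direct difference between NE and BaP was not set by that selection. For the opposite groups its direction was set by it. The direct differences printed for those genes give a size and are no further support.

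**Figure D2:**
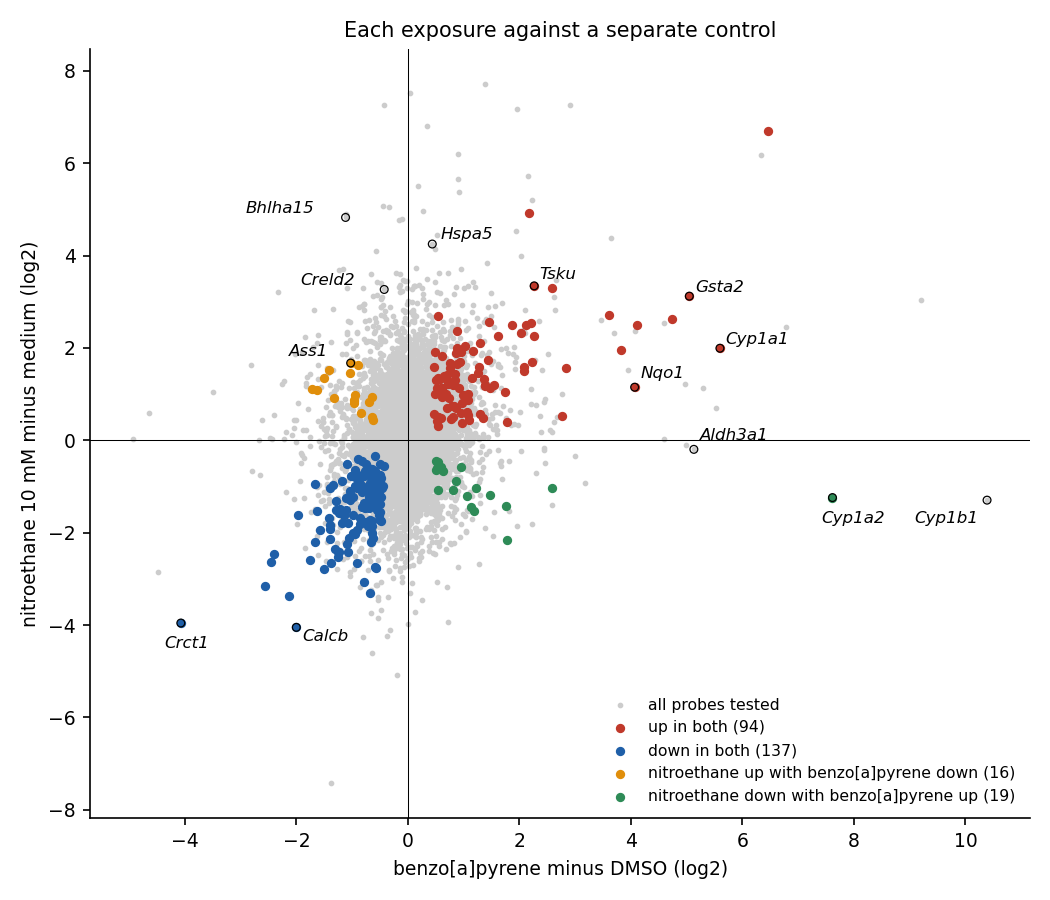
Log2 change of each tested probe in BaP against DMSO (x axis) and in NE against medium (y axis), which share no library. Coloured points are the 94 probes up in both exposures, the 137 down in both, the 16 up in NE and down in BaP and the 19 down in NE and up in BaP, all called against both controls; grey points are the other probes. Cyp1a1, Gsta2 and Nqo1 lie to the upper right, Calcb and Crct1 to the lower left, and Cyp1a2 far to the right below the zero line.

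Among the 94 probes up in both exposures were 10 of the NRF2 target list (among them Gsta2, Akr7a3, Gsta5, Nqo1, Gsta1, Slc7a11, Gclc, Abcc3 and Akr1b8) and 7 of the conjugation list (Gsta1 to Gsta5, Ugdh and Ugt2b35). Over its 26 tested probes the NRF2 list had 16 up and 1 down in NE against medium (median 1.06, against 19.7% of all probes up) and 16 up and none down in BaP against DMSO (median 0.93, against 2.36% of all probes up). With the controls swapped it had 16 up and 2 down in NE against DMSO, next to 16.5% of all probes up. In BaP against medium it had 16 up and 1 down, next to 5.93% up. Between the exposures it was divided, with 5 probes higher and 9 lower in NE than in BaP and a median of 0.07. Of all probes 14.9% were higher and 16.2% lower.

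Nqo1, a quinone reductase controlled by both NRF2 and AhR, had 93.5, 77.5 and 89.6 CPM in NE, 559, 616 and 472 CPM in BaP, 40.7, 36.7 and 41.3 CPM in medium, and 29.5, 30.2 and 34.7 CPM in DMSO. All NE libraries lay above all controls and below all BaP libraries. NE exceeded medium by 1.15 ± 0.15 (adjusted p = 6.24e-06), BaP exceeded DMSO by 4.07 ± 0.17 (adjusted p = 8.61e-13), and NE was log2 -2.63 ± 0.15 below BaP (adjusted p = 2.84e-10). Gsta2, a glutathione transferase, followed the same order with 106, 105 and 74.8 CPM in NE, 651, 689 and 701 CPM in BaP, 8.93, 11.3 and 12.6 CPM in medium, and 22.5, 18.3 and 18.3 CPM in DMSO. Its close relative Gsta5 had 56.8, 37.7 and 52.3 CPM in NE, 506, 482 and 354 CPM in BaP, 7.31, 8.52 and 8.43 CPM in medium, and 21.7, 10.1 and 16.4 CPM in DMSO, and the glutathione transferases of this family share sequence, so reads may be split between their probes.

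Other NRF2 targets were mixed: some gave no call between the exposures, some were higher in NE and some lower. Akr7a3, an aldehyde reductase that acts on aflatoxin dialdehyde, had 396, 262 and 441 CPM in NE, 294, 282 and 304 CPM in BaP, 67.5, 63.8 and 68.7 CPM in medium, and 68.5, 65.5 and 59.9 CPM in DMSO. NE replicate 2 lay below all BaP libraries, while the other NE libraries lay above them. With it the difference was not called (0.37, 95% interval 0.03 to 0.72, adjusted p = 0.119), and without it NE was higher by 0.62 (adjusted p = 3.26e-05). Gclc, the catalytic subunit of the enzyme that limits glutathione synthesis, had 173, 183 and 161 CPM in NE, 166, 168 and 138 CPM in BaP, 65.8, 64.8 and 60.6 CPM in medium, and 92.6, 82.1 and 75.8 CPM in DMSO, with no call between the exposures (adjusted p = 0.38). It was chosen for naming after its values were seen, as were the next 3 genes. Hmox1, haem oxygenase, was higher in NE than in BaP, at 399, 366 and 368 CPM in NE, 232, 232 and 216 CPM in BaP, 154, 148 and 162 CPM in medium, and 238, 226 and 230 CPM in DMSO (NE minus BaP 0.77, adjusted p = 0.000112). BaP did not differ from DMSO at this gene by a call (adjusted p = 0.816). Abcc4, an efflux transporter, was likewise higher in NE at 20.9, 24.5 and 25.6 CPM against 9.53, 12.6 and 12.1 CPM in BaP (adjusted p = 0.000721). Gpx2, a glutathione peroxidase of the list, fell in NE to 70.3, 47.3 and 79.8 CPM, against 156, 140 and 139 CPM in BaP, 270 to 296 CPM in medium and 157 to 164 CPM in DMSO. Ephx1, microsomal epoxide hydrolase, was raised by BaP, not called in NE against medium (adjusted p = 0.273) and lower in NE than in DMSO (-0.89, adjusted p = 0.000146), with 244, 216 and 270 CPM in NE, 1400, 1510 and 1300 CPM in BaP, 293, 304 and 260 CPM in medium, and 433, 441 and 452 CPM in DMSO, and the direct difference was log2 -2.5 ± 0.16 (adjusted p = 5.41e-10).

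The remaining shared rises named by rank lay outside these lists. Tsku, a secreted leucine-rich protein made by liver, had 333, 387 and 375 CPM in NE, 209, 196 and 182 CPM in BaP, 39.9, 31.9 and 36.1 CPM in medium, and 45, 37 and 35.3 CPM in DMSO. Of the 8 leading shared rises it was called higher in NE than in BaP (0.92 ± 0.13, adjusted p = 2.06e-05), as Akr7a3 was without NE replicate 2, while Gsta2 and Cyp1a1 were called lower. Mettl7b, a thiol methyltransferase, had 104, 102 and 119 CPM in NE, 101, 104 and 113 CPM in BaP, 19.3, 20.2 and 18.8 CPM in medium, and 27.8, 27.3 and 28.2 CPM in DMSO. Its NE and BaP levels overlapped and their difference lay between -0.18 and 0.31 (95% interval, adjusted p = 0.724). The cytochrome P450 Cyp2f4, the phosphate and urate transporter Slc17a3 and the glucuronosyltransferase Ugt2b17 also gave no call between the exposures, with intervals of -0.53 to 0.34, -0.46 to 0.97 and -0.45 to 0.26. Slc17a3 was variable in BaP at 180, 160 and 62.2 CPM and left the shared group when DMSO replicate 2 was left out. Cyp2f4 and Ugt2b17 belong to gene families whose members share sequence. Of the 94 probes, 17 were higher in NE than in BaP, 18 lower and 59 not called, next to 14.9% higher and 16.2% lower among all probes.

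Calcb and Crct1 were lowered by both exposures. Calcb, which encodes the beta form of the neuropeptide CGRP, had 36.9, 22.9 and 28 CPM in NE, 171, 150 and 146 CPM in BaP, 506, 460 and 515 CPM in medium, and 594, 592 and 611 CPM in DMSO. No groups overlapped, and NE was the lowest. NE fell by log2 -4.05 ± 0.19 against medium (adjusted p = 9.27e-12) and BaP by -2 ± 0.17 against DMSO (adjusted p = 1.74e-07), and NE was -2.37 ± 0.18 below BaP (adjusted p = 7.7e-09). Crct1, a small cysteine-rich protein of epithelia, had 0.248, 4.39 and 0.555 CPM in NE, 3.06, 2.56 and 3.25 CPM in BaP, 19.7, 30.7 and 25.7 CPM in medium, and 39.7, 55.3 and 49 CPM in DMSO. Both exposures lay far under the controls, but NE replicate 2 stood above all BaP libraries where the other NE libraries stood below them. With it the difference between NE and BaP was not called (-0.84 ± 0.6, adjusted p = 0.315), and without it NE was lower by log2 -2.71 (adjusted p = 0.000224).

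Cholesterol synthesis genes made up 11 of the 137 shared falls, the most of any list (among them Msmo1, Mvd, Idi1, Hmgcs1, Cyp51, Acat2, Fdft1, Lss, Dhcr7 and Mvk). These enzymes are targets of SREBP2, a transcription factor released when sterols are low. Over its 22 tested probes the list had 15 down and 1 up in NE against medium (median -1.03, against 19.5% of all probes down) and 13 down and none up in BaP against DMSO (median -0.76, against 2.38% of all probes down). With the controls swapped it had 17 down and none up in NE against DMSO, next to 17.1% of all probes down. In BaP against medium it had 14 down and 1 up, next to 5.96% down. Cyp51, lanosterol demethylase, fell in both and further in NE, with 74.2, 59.9 and 59.6 CPM in NE, 131, 152 and 116 CPM in BaP, 268, 270 and 245 CPM in medium, and 259, 256 and 243 CPM in DMSO (NE minus BaP -1.01 ± 0.15, adjusted p = 3.13e-05). Hmgcs1, which makes HMG-CoA, stood at 3.84, 3.99 and 1.89 CPM in NE, 9.53, 5.94 and 7.17 CPM in BaP, 13.7 to 18.3 CPM in medium and 12.7 to 22 CPM in DMSO. Idi1, isopentenyl diphosphate isomerase, stood at 7.3, 3.86 and 6.1 CPM in NE, 12.1, 13.4 and 8.52 CPM in BaP, 25.1 to 27.3 CPM in medium and 28.1 to 30.3 CPM in DMSO. Insig1, a sterol-regulated brake on SREBP processing, did not follow: it had 653, 503 and 598 CPM in NE, 379, 347 and 242 CPM in BaP, 823, 770 and 650 CPM in medium, and 879, 783 and 747 CPM in DMSO. BaP lowered it by log2 -1.37 ± 0.19 against DMSO (adjusted p = 8.57e-05), while in NE it was not called against medium (adjusted p = 0.162) or DMSO (adjusted p = 0.0519). In total 8 probes of the list were lower and 2 higher in NE than in BaP, next to 16.2% and 14.9% of all probes.

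Actin genes were mostly lower in NE, and in BaP their count depended on the control. Of the 19 probes of the actin and serum response factor list, 18 were down in NE against medium (median -1.68, next to 19.5% of all probes down). Against DMSO NE lowered 15 (median -1.07, next to 17.1%). BaP lowered 6 against DMSO (median -0.53, next to 2.38%) and 15 against medium (median -1.21, next to 5.96%). None was up in any of these. Cyr61, a matricellular protein, had 186, 128 and 187 CPM in NE, 213, 176 and 189 CPM in BaP, 508, 543 and 587 CPM in medium, and 467, 544 and 464 CPM in DMSO, with NE and BaP overlapping (adjusted p = 0.521). Thbs1, the matrix protein thrombospondin, had 283, 164 and 197 CPM in NE, 453, 345 and 465 CPM in BaP, 1300, 1210 and 1470 CPM in medium, and 1280, 1560 and 1260 CPM in DMSO, and was lower in NE than in BaP (-0.92 ± 0.2, adjusted p = 0.00206). Acta1, skeletal actin, was lower in NE at 70.9, 34 and 48.9 CPM against 285, 183 and 233 CPM in BaP, 516 to 687 CPM in medium and 308 to 358 CPM in DMSO (-2.13 ± 0.26, adjusted p = 2.85e-05). The opposite was seen for Pfn1, the actin-binding protein profilin, which varied between the NE libraries at 22, 10.9 and 5.33 CPM, against 4.2, 5 and 1.79 CPM in BaP (1.83 ± 0.5, adjusted p = 0.0127).

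The secreted protease inhibitor A2m, an acute-phase protein in the rat, fell in both. Its higher-ranked probe had 57.6, 49.7 and 54.3 CPM in NE, 164, 202 and 159 CPM in BaP, 563, 553 and 345 CPM in medium, and 1040, 1090 and 856 CPM in DMSO. NE was lower than BaP by log2 -1.67 ± 0.19 (adjusted p = 1.89e-06), and medium was lower than DMSO by -1.07 ± 0.18 (adjusted p = 0.00179). Ly6g6c, a surface protein of the LY6 family, had 58.1, 51.4 and 54.4 CPM in NE, 134, 117 and 125 CPM in BaP, and 311 to 418 CPM over the controls. Anxa8, an annexin, was low throughout, at 2.48, 4.39 and 3.99 CPM in NE and 7.71, 5 and 8.52 CPM in BaP, with 10.9 to 25.2 CPM over the controls. Of the 137 shared falls, 61 were lower in NE than in BaP, 6 higher and 70 not called, next to 16.2% lower and 14.9% higher among all probes.

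Genes that moved in opposite directions were few. Among the 16 probes up in NE and down in BaP, 2 of the 3 tested probes of Masp1, a serine protease of the lectin complement pathway, kept their place under all 17 alternatives. The stronger probe had 138, 156 and 131 CPM in NE, 29.8, 28.7 and 28.2 CPM in BaP, 49.9, 44.7 and 41.7 CPM in medium, and 55.6, 58.3 and 40.5 CPM in DMSO. Its NE libraries all lay above the controls and its BaP libraries all below, with 2.31 ± 0.14 between them (adjusted p = 4.94e-10). Mmp15, a membrane-bound matrix metalloproteinase, also kept its place under all 17, with 129, 132 and 145 CPM in NE, 45.8, 45.9 and 42.6 CPM in BaP, 74.5, 71.8 and 69 CPM in medium, and 63, 66.1 and 72.4 CPM in DMSO. Ass1, the urea cycle enzyme argininosuccinate synthase, had 627, 664 and 765 CPM in NE, 159, 155 and 99.1 CPM in BaP, 220, 242 and 187 CPM in medium, and 321, 264 and 226 CPM in DMSO. The rise in NE was 1.67 ± 0.19 against medium (adjusted p = 1.24e-06), while the fall in BaP was -1.03 ± 0.19 against DMSO (adjusted p = 0.00206) and -0.66 ± 0.19 against medium (adjusted p = 0.0252), and the class was lost under 5 of 17 alternatives. Without NE replicate 2 the fall of Ass1 in BaP against medium had an adjusted p of 0.0547. Cebpd, a C/EBP transcription factor, lost it under 1, Tesc, a calcineurin-related protein, under 5, Nupr1l1, a relative of the stress protein Nupr1, under 11, and the unnamed transcript AABR07001519.1 under 9. The last had 33.3, 91.9 and 36.8 CPM in NE, so NE replicate 2 carried part of its mean.

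Of the 19 probes down in NE and up in BaP, Slc4a11, a membrane transporter of the bicarbonate carrier family, was the clearest: 7.43, 7.32 and 7.32 CPM in NE, 70, 70.3 and 72.6 CPM in BaP, 29.7, 36.2 and 33 CPM in medium, and 15.3, 21.1 and 23 CPM in DMSO. The direct difference was log2 -3.24 ± 0.17 (adjusted p = 5.17e-11). Bmf, a pro-apoptotic BCL2-family protein, had 5.08, 7.59 and 6.77 CPM in NE, 36.1, 41 and 72 CPM in BaP, 15.9, 17.2 and 18.8 CPM in medium, and 14.1, 12.3 and 15.6 CPM in DMSO. Tyms, thymidylate synthase, had 41.1, 37 and 41.3 CPM in NE, 139, 118 and 104 CPM in BaP, 69.6, 70.8 and 80.6 CPM in medium, and 60.7, 61.4 and 67.7 CPM in DMSO. These 3 kept their place under all 17 alternatives, as did Dpt, a matrix protein (16.5, 10.5 and 13 CPM in NE, 95.1, 104 and 95.4 CPM in BaP and 23.2 to 44.4 CPM over the controls), the cytochrome P450 Cyp2t1 (17.6, 22.8 and 17.6 CPM in NE, 90.2, 88.1 and 92.2 CPM in BaP) and Mybl1, a MYB-family transcription factor (12.1, 14.1 and 13.1 CPM in NE, 69.8, 65.4 and 59.4 CPM in BaP). Only 1 of the 2 tested probes of Dpt was in this group. Gdf15, a stress cytokine induced by p53 and ATF4, had 40.2, 45.4 and 44.1 CPM in NE, 143, 165 and 244 CPM in BaP, 101, 116 and 138 CPM in medium, and 68.3, 70.4 and 101 CPM in DMSO, and lost its place under 5 alternatives, among them that without NE replicate 2 (BaP minus medium 0.61, adjusted p = 0.0519). Cyp1a2 lost its place under 4. The steroid hydroxylase Cyp3a9, named by its list, belonged here too, with 12, 13.3 and 9.21 CPM in NE, 92, 100 and 94.9 CPM in BaP and 14.8 to 24.9 CPM over the controls.

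ER chaperones separated the exposures in the other direction. Of 15 tested probes of the ER chaperone and unfolded protein response list, 13 were higher and none lower in NE than in BaP, with a median of 1.8, against 14.9% of all probes higher. All 15 were up in NE against medium (median 2.04, next to 19.7% of all probes up) and 13 against DMSO (median 1.6, next to 16.5%). In BaP edgeR called none against DMSO (median -0.02, next to 2.36% of all probes up). Of these 2 had an unadjusted p under 0.05, and DESeq2 called 1. Against medium 4 were up in BaP (median 0.35, next to 5.93%). The 2 probes not called between NE and BaP were Xbp1, a transcription factor of the pathway, and Sec61b, a translocon subunit. Without NE replicate 2 the counts higher in NE were again 13, 15 and 13, and in BaP 2 probes were down against DMSO and 7 up against medium.

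**Figure D3:**
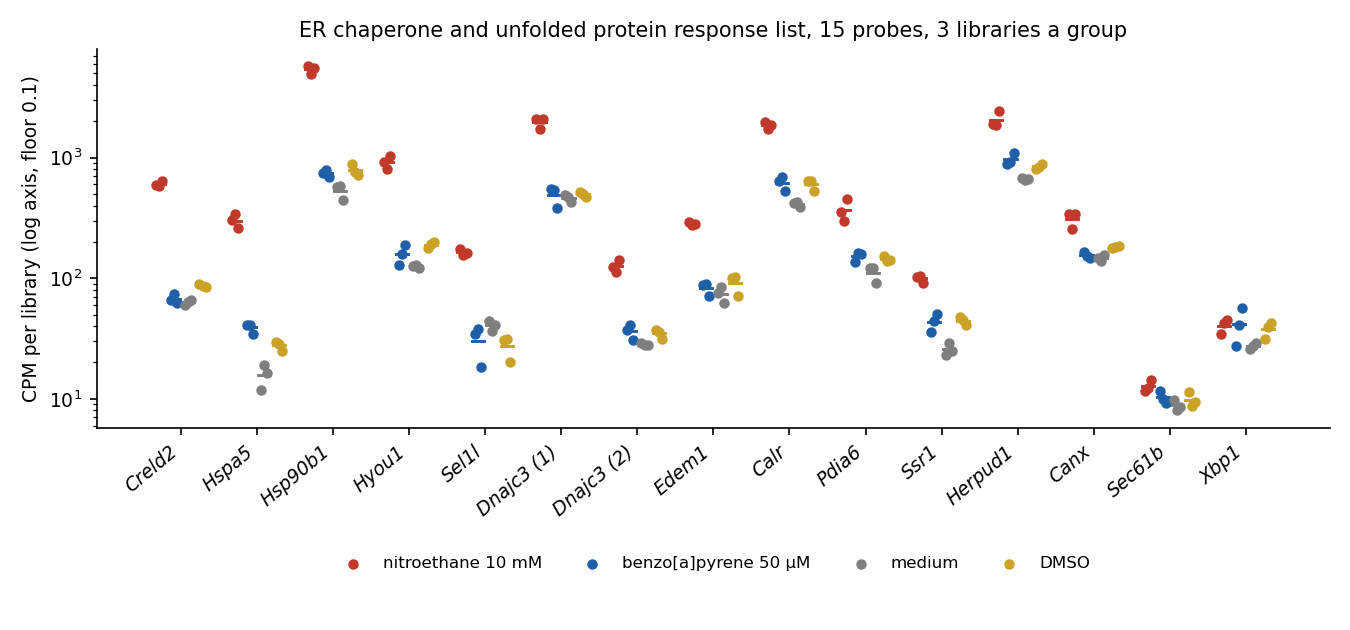
Level in CPM (log axis) of the 15 tested probes of the ER chaperone and unfolded protein response list in each library of NE 10 mM, BaP 50 µM, medium and DMSO; points are libraries and the bar is the mean of 3. The NE libraries of Hspa5, Creld2, Hsp90b1 and Hyou1 stand apart above the other 9, and those of Xbp1 lie among the BaP libraries.

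Hspa5, the chaperone BiP that gates the stress sensors of the ER, had 301, 342 and 259 CPM in NE, 41.1, 41.3 and 34.7 CPM in BaP, 11.9, 19 and 16.4 CPM in medium, and 29.5, 28.7 and 24.9 CPM in DMSO. NE stood above BaP by 2.96 ± 0.15 (adjusted p = 4.31e-11) and above medium by 4.25 ± 0.17 (adjusted p = 1.53e-12). BaP itself was above medium by 1.29 ± 0.16 (adjusted p = 1.04e-05) but not called against DMSO (0.44 ± 0.15, adjusted p = 0.128), and DMSO was above medium. Creld2, a secreted ER stress protein, had 591, 582 and 639 CPM in NE, 65.9, 73.6 and 62.4 CPM in BaP, 59.7, 64 and 65.9 CPM in medium, and 89.3, 85.7 and 85.2 CPM in DMSO. Hsp90b1, the ER form of HSP90, had 5700, 4920 and 5530 CPM in NE, 741, 787 and 695 CPM in BaP, 567, 576 and 446 CPM in medium, and 879, 755 and 722 CPM in DMSO. Without NE replicate 2, BaP was called lower than DMSO at Creld2 (-0.43, adjusted p = 0.00402) and higher than medium at Hsp90b1 (0.46, adjusted p = 0.00423), and with all libraries neither was called. NE exceeded BaP by 3.19 ± 0.14 for Creld2 (adjusted p = 3e-12) and by 2.89 ± 0.18 for Hsp90b1 (adjusted p = 3.48e-10). Hyou1, a large ER chaperone, had 911, 808 and 1030 CPM in NE, 128, 159 and 187 CPM in BaP, 126, 128 and 122 CPM in medium, and 177, 193 and 198 CPM in DMSO.

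The ERSE of the promoters printed above was found in 7 of the 17 list promoters present in RefSeq (Hspa5, Hsp90b1, Creld2, Canx, Xbp1, Dnajc3 and Calr). Over the whole panel, 13 genes with an ERSE promoter had 15 tested probes, of which 10 (66.7%) were higher and 3 lower in NE than in medium. Probes whose promoter had no ERSE were higher in 19.7% of 8173 cases. In BaP against DMSO edgeR called none of the 15 (3 had an unadjusted p under 0.05, and DESeq2 called 1). In BaP against medium 4 of the 15 (26.7%) were higher and 1 lower, next to 5.93% higher among probes without an ERSE. In NE against DMSO 9 were higher and 2 lower, next to 16.2% and 17.8% of probes without an ERSE. Most of the probes that rose belong to the chaperone list already described, so the share is not independent of it.

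**Figure D4:**
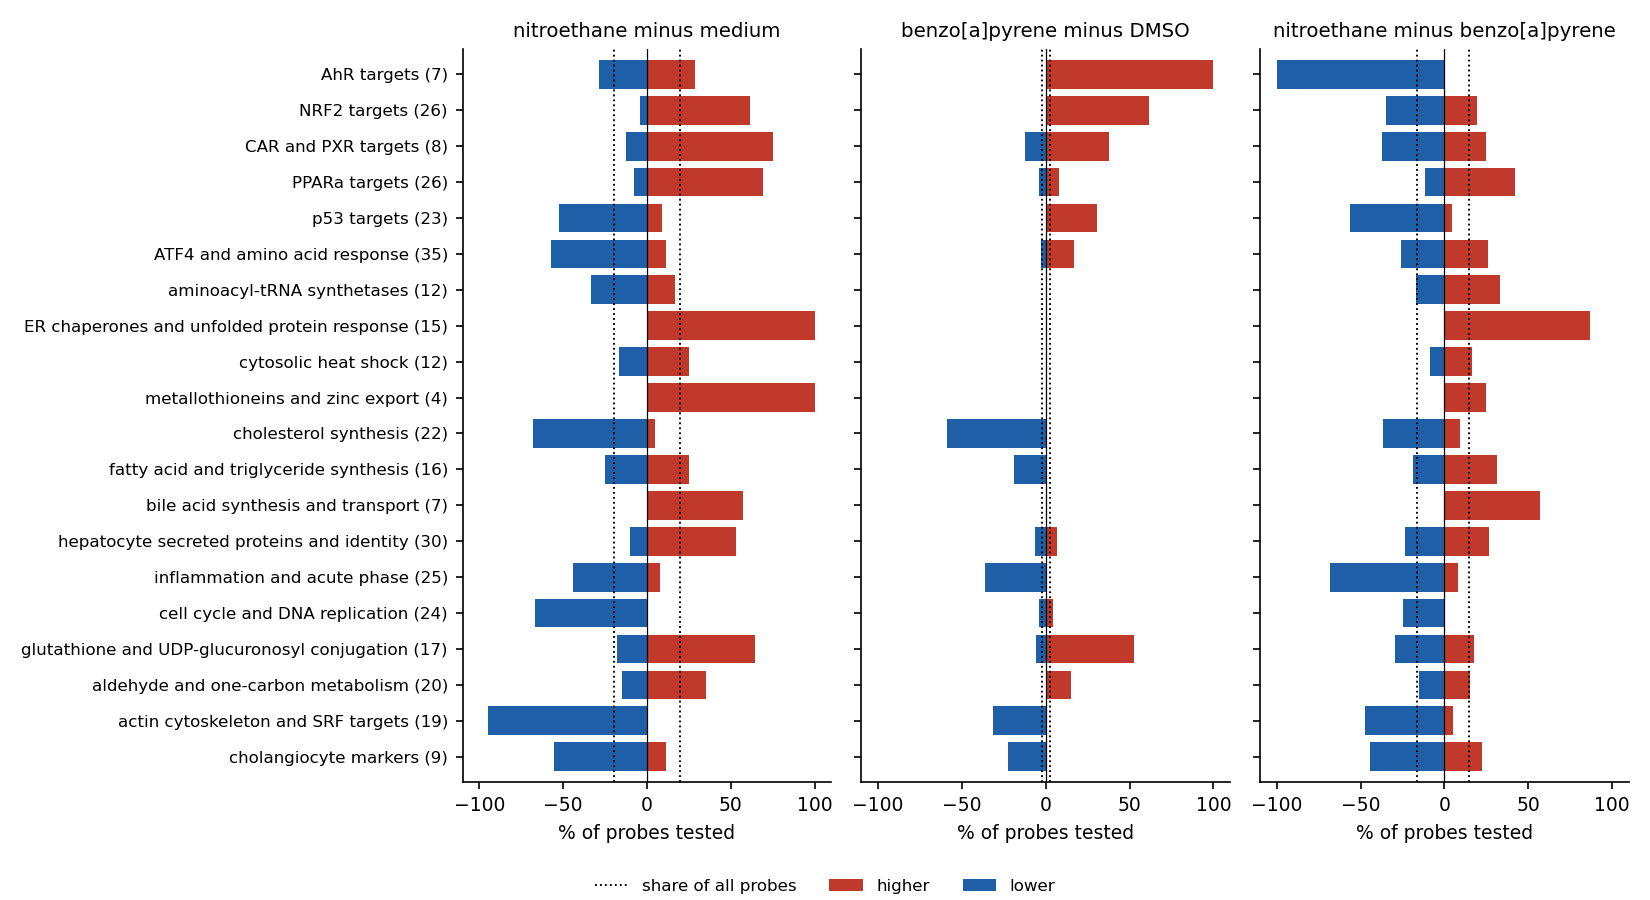
Percentage of tested probes of each gene list called higher (to the right) or lower (to the left) in NE against medium, in BaP against DMSO and in NE against BaP, for lists with at least 4 tested probes; the dotted lines give the share of all 11896 probes. The AhR list is called wholly higher in BaP and wholly lower in NE than in BaP, the ER list is called higher in NE and not in BaP, and the cholesterol list is called lower in both exposures.

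Outside the ER list, the genes furthest above BaP in NE included 4 that did not rest on a single library. Cyp4b1, a cytochrome P450 that hydroxylates fatty acids, had 22.7, 26.6 and 30.3 CPM in NE, 0.681, 0.815 and 1.23 CPM in BaP, and 0.114 to 0.928 CPM over the controls (NE minus BaP 4.87 ± 0.36, adjusted p = 5.2e-09). Bhlha15, the secretory cell transcription factor MIST1 and a target of XBP1, had 58.9, 59.9 and 56.8 CPM in NE, 3.52, 2.68 and 2.47 CPM in BaP, 1.02 to 3.01 CPM in medium and 5.35 to 7.22 CPM in DMSO (NE minus BaP 4.36 ± 0.25, adjusted p = 1.61e-10). At Bhlha15 medium was below DMSO (-1.59 ± 0.28, adjusted p = 0.00227). BaP was lower than DMSO (-1.12 ± 0.27, adjusted p = 0.0159) and not called against medium (adjusted p = 0.396). Aqp9, the glycerol channel of hepatocytes, had 38.3, 32 and 33.6 CPM in NE and 2.84, 4.07 and 3.59 CPM in BaP, and 2.55 to 5.99 CPM over the controls (3.34 ± 0.23, adjusted p = 1.94e-09). The fourth, LOC103694875, had 241, 167 and 235 CPM in NE against 5.9, 3.61 and 2.02 CPM in BaP and 1.62 to 4.97 CPM over the controls. In all 4 the NE libraries lay apart from the other 9. The other 6 of the 10 largest differences were carried by NE replicate 2: AABR07007905.2 had 21.3, 7020 and 19.3 CPM in NE and 9.87, 8.5 and 11 CPM in BaP, a log2 difference of 7.76 ± 2.25 (adjusted p = 0.0313) that was 1.16 without that library. AABR07037395.2, AC133403.1, AC102976.1, AC112624.1 and AABR07053179.1 gave 3.69 to 7.48 with it and 0.58 to 1.22 without it. Ranked without NE replicate 2, the places went to Creld2, Selenom, Ghr, Hsp90b1, Hspa5 and Hyou1. Ghr, the growth hormone receptor, had 63.4, 63.8 and 47.2 CPM in NE and 8.05, 7.91 and 5.27 CPM in BaP, and the selenoprotein gene Selenom had 35.4, 22.8 and 54 CPM in NE and 5.56, 5 and 6.05 CPM in BaP.

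At the other end, next to the AhR battery, lay genes that NE lowered and BaP changed little. Plbd2, a lysosomal hydrolase, had 11.1, 18 and 11 CPM in NE, 158, 144 and 146 CPM in BaP, and 112 to 167 CPM over the controls (NE minus BaP -3.48 ± 0.15, adjusted p = 3.28e-12). Bcam, an adhesion molecule of basal membranes, had 0.99, 3.99 and 0.444 CPM in NE, 26, 25.1 and 25 CPM in BaP and 18.9 to 26.8 CPM over the controls (NE minus BaP -3.86, or -5.04 without NE replicate 2). R3hdml, a secreted protein with a CAP domain, had 4.7, 4.39 and 4.77 CPM in NE, 38.2, 50.9 and 111 CPM in BaP and 26.6 to 104 CPM over the controls. For these 3 genes BaP gave no call against either control. Steap4, a metalloreductase, had 29.7, 23.4 and 30.2 CPM in NE, 266, 279 and 323 CPM in BaP, 156, 154 and 139 CPM in medium, and 205, 218 and 219 CPM in DMSO. Slpi, a secreted protease inhibitor, had 1.73, 1.6 and 2.44 CPM in NE, 23.8, 31.8 and 26.9 CPM in BaP, 8.23, 13.5 and 6.26 CPM in medium, and 13.3, 16.6 and 16.3 CPM in DMSO. Both were up in BaP against medium. Against DMSO neither was called with all libraries (Steap4 0.37, adjusted p = 0.165, and Slpi 0.78, adjusted p = 0.0624), and both were called up without NE replicate 2 (0.37, adjusted p = 0.00783, and 0.77, adjusted p = 0.0374). Scn4b, a sodium channel subunit, was raised by BaP against both controls: 0.495, 0.666 and 0 CPM in NE, 25.3, 24.4 and 28.2 CPM in BaP, and 0.232 to 1.3 CPM over the controls.

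The p53 list, genes that p53 switches on after DNA damage, was lower in NE than in BaP. Of its 23 tested probes, 13 were lower and 1 higher in NE than in BaP (median -0.56, against 16.2% of all probes lower). In BaP 7 were up and none down against DMSO (median 0.44, against 2.36% of all probes up), and 6 were up and 1 down against medium (5.93% of all probes up). In NE 12 were down and 2 up against medium (19.5% of all probes down), and 7 were down and 2 up against DMSO (17.1%). Cdkn1a, the cell cycle inhibitor p21, had 2.85, 4.39 and 4.55 CPM in NE, 9.53, 11.8 and 15 CPM in BaP, 5.91, 8.27 and 10.1 CPM in medium, and 4.62, 5.07 and 5.46 CPM in DMSO. BaP exceeded DMSO (1.19 ± 0.26, adjusted p = 0.00798) but was not called against medium (adjusted p = 0.177), and NE was lower than BaP by log2 -1.59 ± 0.27 (adjusted p = 0.000146). Ccng1, cyclin G and a p53 target, was the exception with 6.93, 8.52 and 2.55 CPM in NE, 1.25, 1.4 and 0.336 CPM in BaP and 0 to 1.42 CPM over the controls. In the cell cycle list of 24 probes, 16 were down in NE against medium (19.5% of all probes down) and 17 against DMSO (17.1%), with none up. Between the exposures 6 of the 24 were lower in NE and none higher, next to 16.2% of all probes lower. Mcm3, a replication helicase subunit, had 4.7, 5.46 and 4.99 CPM in NE, 12.7, 13.7 and 10.5 CPM in BaP, 14.3, 11.7 and 23 CPM in medium, and 13, 14.7 and 15.6 CPM in DMSO. Top2a and Mcm5 were lower in NE than in BaP as well, at levels under 5 CPM in both, and the Top2a difference was log2 -2.26 with and -4.42 without NE replicate 2.

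Inflammation and acute-phase genes were lower in NE than in BaP at 17 of 25 probes and higher at 2 (median -1.26, against 16.2% of all probes lower). The controls themselves differed at this list, with 15 probes lower in medium than in DMSO and none higher (median -0.93, against 2.14% of all probes lower and 1.13% higher). Cxcl10, an interferon-induced chemokine, had 7.55, 7.99 and 6.44 CPM in NE, 41.1, 49.7 and 44.8 CPM in BaP, 7.07, 8.52 and 7.97 CPM in medium, and 47.2, 43.9 and 40.5 CPM in DMSO. NE was not called against medium (adjusted p = 0.68) and BaP was not called against DMSO (adjusted p = 0.978), while medium was log2 -2.52 ± 0.16 below DMSO (adjusted p = 1.3e-08). For this gene medium lay with NE and DMSO with BaP. Over the list NE lowered 11 probes and raised 2 against medium, next to 19.5% and 19.7% of all probes. BaP lowered 9 and raised none against DMSO, next to 2.38% of all probes lowered. With these separate controls the NE effect was higher than the BaP effect at 3 probes and lower at 5 (median -0.34), next to 9.41% and 10.5%. With the controls swapped NE lowered 18 (of all probes 17.1%) and raised none, and BaP lowered 3 (5.96%) and raised 7 (5.93%). The part of the solvent in the list's difference was not tested. Hp, the haemoglobin-binding acute-phase protein haptoglobin, fell below both controls in NE, with 19.8, 11.2 and 23.9 CPM in NE, 99.3, 145 and 114 CPM in BaP, 66.5, 69.7 and 37.6 CPM in medium, and 160, 140 and 117 CPM in DMSO. The cytokine Tnf had 0.371, 1.86 and 0.444 CPM in NE, 10.4, 8.26 and 10.6 CPM in BaP, 2.2, 1.5 and 0.797 CPM in medium, and 4.5, 6.34 and 5.35 CPM in DMSO. It was not called in NE against medium (-0.81, adjusted p = 0.217), but was lower without NE replicate 2 (-1.76, adjusted p = 0.0184). The neutrophil chemokine Cxcl2 was low in both, at 0.248, 1.6 and 0.444 CPM in NE and 5.44, 4.31 and 2.47 CPM in BaP, a difference of log2 -2.44, or -3.39 without NE replicate 2.

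Of 26 tested PPARα target probes, 11 were higher and 3 lower in NE than in BaP (median 0.34, against 14.9% of all probes higher). In NE 18 were up against medium (19.7% of all probes) and 13 against DMSO (16.5%). BaP raised 17 against medium (5.93% of all probes) and 2 against DMSO (2.36%), so this list also depends on the control. Pdk4, a kinase that shuts off glucose oxidation in fasting, had 22.7, 43.8 and 47.7 CPM in NE, 6.24, 5.47 and 8.52 CPM in BaP, 3.71, 3.01 and 3.42 CPM in medium, and 7.46, 6.45 and 6.8 CPM in DMSO (NE minus BaP 2.51 ± 0.24, adjusted p = 1.47e-07). Acot2, a mitochondrial acyl-CoA thioesterase, had 69.7, 83 and 108 CPM in NE, 15.7, 16.4 and 24.7 CPM in BaP and 16.9 to 27.9 CPM over the controls. Fabp1, the liver fatty acid binding protein, was lower in NE than in BaP, with 42.2, 27.8 and 33.3 CPM in NE, 95.1, 100 and 147 CPM in BaP, 32.9, 35 and 46.3 CPM in medium, and 177, 169 and 254 CPM in DMSO. Its medium level was log2 -2.43 ± 0.23 below DMSO (adjusted p = 1.79e-05). NE was not called against medium (-0.12, adjusted p = 0.705), and BaP was lower than DMSO (-0.87, adjusted p = 0.0255). The difference between these effects was 0.75 and not called (adjusted p = 0.103). With the controls swapped it was -4.11 (adjusted p = 2.72e-07), so for Fabp1 the reading depends on the control. The lipid synthesis list had 5 of 16 probes higher and 3 lower in NE than in BaP (median 0.02), next to 14.9% and 16.2% of all probes. In it Lpin1 and Srebf1 were higher in NE (65.9, 100 and 78 CPM in NE and 25.1, 23.6 and 30.8 CPM in BaP for Lpin1, a phosphatidate phosphatase). Dgat2, which completes triglyceride synthesis, was lower at 15.6, 11.5 and 14.8 CPM in NE, 63.2, 74.8 and 70.8 CPM in BaP and 51 to 60.2 CPM over the controls. The gluconeogenic enzyme Pck1 had 20.2, 25.4 and 22.1 CPM in NE, 6.24, 5 and 9.19 CPM in BaP and 3.6 to 6.38 CPM over the controls. Of 7 bile acid probes, 4 were higher in NE than in BaP and none lower, next to 14.9% of all probes higher: Nr0b2, Slc10a1, Cyp27a1 and Abcc2.

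The ATF4 and amino acid response list was evenly divided between the exposures, with 9 of 35 probes higher and 9 lower in NE (median -0.12), next to 14.9% of all probes higher and 16.2% lower, shares against which the small lists of this paragraph can also be read. Pycr1, a proline synthesis enzyme, had 124, 101 and 105 CPM in NE, 21.1, 22.6 and 15.8 CPM in BaP, 25.4, 23.8 and 31.2 CPM in medium, and 17.3, 17.9 and 19.1 CPM in DMSO. Cth, which makes cysteine from cystathionine, had 78.1, 79.2 and 76.3 CPM in NE, 32.9, 32.1 and 27.5 CPM in BaP and 21.4 to 40.1 CPM over the controls. Pycr1 and Cth rose in a list that was mostly lower in NE than in medium (20 down and 4 up, next to 19.5% and 19.7% of all probes). Against DMSO 14 were down and 11 up, next to 17.1% and 16.5%. BaP lowered 16 and raised 5 against medium, next to 5.96% and 5.93%. Against DMSO it lowered 1 and raised 6, next to 2.38% and 2.36%. Medium was higher than DMSO at 5 probes and lower at none, next to 1.13% and 2.14%, so this list too depends on the control. Of 12 aminoacyl-tRNA synthetase probes, 4 were higher in NE than in BaP and 2 lower, among them Wars with 137, 138 and 151 CPM in NE and 40.8, 49.6 and 51.7 CPM in BaP. Of 12 cytosolic heat shock probes, 2 were higher and 1 lower in NE. The CAR and PXR list of 8 probes had 2 higher and 3 lower, including Cyp2b2 with 13.6, 11.9 and 5.99 CPM in NE, 28, 33.1 and 44 CPM in BaP, 1.39, 2.38 and 2.28 CPM in medium, and 6.75, 11.2 and 6.91 CPM in DMSO. Of 4 metallothionein and zinc export probes 1 was higher in NE, Mt2A, which binds zinc and copper, at 158, 166 and 160 CPM in NE, 92.1, 81.2 and 73 CPM in BaP, 26.3, 25.6 and 15.6 CPM in medium, and 69.1, 61.1 and 58.5 CPM in DMSO.

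The conjugation and aldehyde lists had 3 higher and 5 lower of 17 and 3 higher and 3 lower of 20 between NE and BaP, next to 14.9% and 16.2% of all probes. Gstm3, a mu-class glutathione transferase, had 1.61, 1.2 and 1.11 CPM in NE, 11.3, 11.9 and 6.61 CPM in BaP, 4.29, 4.51 and 2.73 CPM in medium, and 4.85, 2.88 and 4.79 CPM in DMSO, and Gsta3 had 15.8, 13.8 and 6.99 CPM in NE, 6.81, 4.89 and 3.7 CPM in BaP and 0.346 to 1.42 CPM over the controls. Gstm3 thus fell in NE where Gsta3 rose. Of the 30 probes of hepatocyte secreted and identity genes, 8 were higher and 7 lower in NE than in BaP (median -0.08), next to the same 14.9% and 16.2%. The albumin gene Alb, which was named after its values were seen, had 2150, 1560 and 1790 CPM in NE, 3010, 2960 and 2550 CPM in BaP, 2510, 2550 and 1970 CPM in medium, and 3870, 3590 and 3350 CPM in DMSO, so the cells of every group carried the marker of their label. Apoc3, a secreted apolipoprotein, had 34.3, 27.7 and 30.3 CPM in NE, 122, 125 and 125 CPM in BaP, 66.7 to 88.8 CPM in medium and 124 to 164 CPM in DMSO. Its controls differed (medium minus DMSO -0.91 ± 0.15, adjusted p = 0.00122).

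Markers of other liver cells were mostly near the limit of counting. Of the Kupffer cell list 3 of 13 probes were tested, of the endothelial list 1 of 12, of the stellate list 2 of 12, of the erythroid list 1 of 4 and of the lymphocyte list none of 8. Outside NE replicate 2, Adgre1, Clec4f and Marco (Kupffer), Kdr, Stab2 and Clec4g (endothelium), Col1a1, Pdgfrb, Dcn and Hand2 (stellate cells) and Hbb, Alas2 and Slc4a1 (erythroid cells) had no count in any library. By edgeR none of the 5 tested Kupffer, endothelial and erythroid probes was called between NE and BaP, with 0 at an unadjusted p under 0.05 and 0 by DESeq2. The summed Kupffer level was 3.88 to 31.2 CPM in NE, 6.69 to 8.03 CPM in BaP, 2.78 to 4.1 CPM in medium and 3.92 to 7.7 CPM in DMSO, the NE maximum being replicate 2. The stellate sum of 242 to 314 CPM in NE, 311 to 375 CPM in BaP, 334 to 382 CPM in medium and 401 to 415 CPM in DMSO came almost wholly from Reln. Cholangiocyte markers were better detected, with 9 of 14 probes tested. Of these 2 were higher and 4 lower in NE than in BaP, next to 14.9% and 16.2% of all probes. The summed cholangiocyte level was 535 to 573 CPM in NE, 708 to 837 CPM in BaP, 1030 to 1157 CPM in medium and 857 to 1005 CPM in DMSO. Sox9, a duct and progenitor factor, had 111, 96.7 and 141 CPM in NE, 201, 187 and 253 CPM in BaP, 381, 406 and 498 CPM in medium, and 285, 337 and 384 CPM in DMSO. This sum was smaller in every NE library than in any BaP library, while lower calls were made at 9 of the 19 actin list probes, and the part of the sum in those changes was not tested. In such bulk samples fewer cells of a type and less RNA per cell cannot be told apart.

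The lower NE concentrations placed the genes on a dose axis, each mean from n = 3 libraries with its SD and with no test. From the lowest concentration, 0.003 mM, through 0.01, 0.03 and 0.1 mM to 0.3 mM, and then 1, 3 and 10 mM, Cyp1a1 averaged 19.1 ± 1.77, 15.5 ± 4.56, 18.4 ± 3, 16.8 ± 1.85, 17.1 ± 3.86, 20.4 ± 5.45, 27.6 ± 6.6 and 73.4 ± 14.3 CPM. At 3 mM 2 of 3 libraries and at 10 mM all 3 lay above every medium library. Calcb averaged 430 ± 83.6, 354 ± 96.5, 426 ± 8.75, 389 ± 25.1, 378 ± 14.2, 310 ± 7.8, 196 ± 36.4 and 29.3 ± 7.08 CPM, below medium (494 ± 29.7 CPM) in mean at each step. Its mean lay above that of BaP (156 ± 13.2 CPM) at 3 mM and below it at 10 mM. Bhlha15 averaged 2.58 ± 1.09, 2.65 ± 0.869, 3.28 ± 0.643, 3.2 ± 0.632, 4.13 ± 1.31, 8.81 ± 1.52, 25.2 ± 3.26 and 58.6 ± 1.58 CPM, and from 1 mM upward each mean lay above the one before it by more than the sum of both SDs. Ass1 stood at 229 ± 43.1, 456 ± 105 and 685 ± 71.8 CPM at 1, 3 and 10 mM, Slc4a11 at 29 ± 9.73, 10.2 ± 1.43 and 7.36 ± 0.0601 CPM, Nqo1 at 48.6 ± 7.31, 62.6 ± 5.09 and 86.8 ± 8.33 CPM, and Gsta2 at 16.6 ± 5.47, 41.2 ± 13 and 95.3 ± 17.8 CPM. Cyp1a1, Nqo1 and Gsta2 had their highest NE mean at the top concentration, below the mean in BaP.

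**Figure D5:**
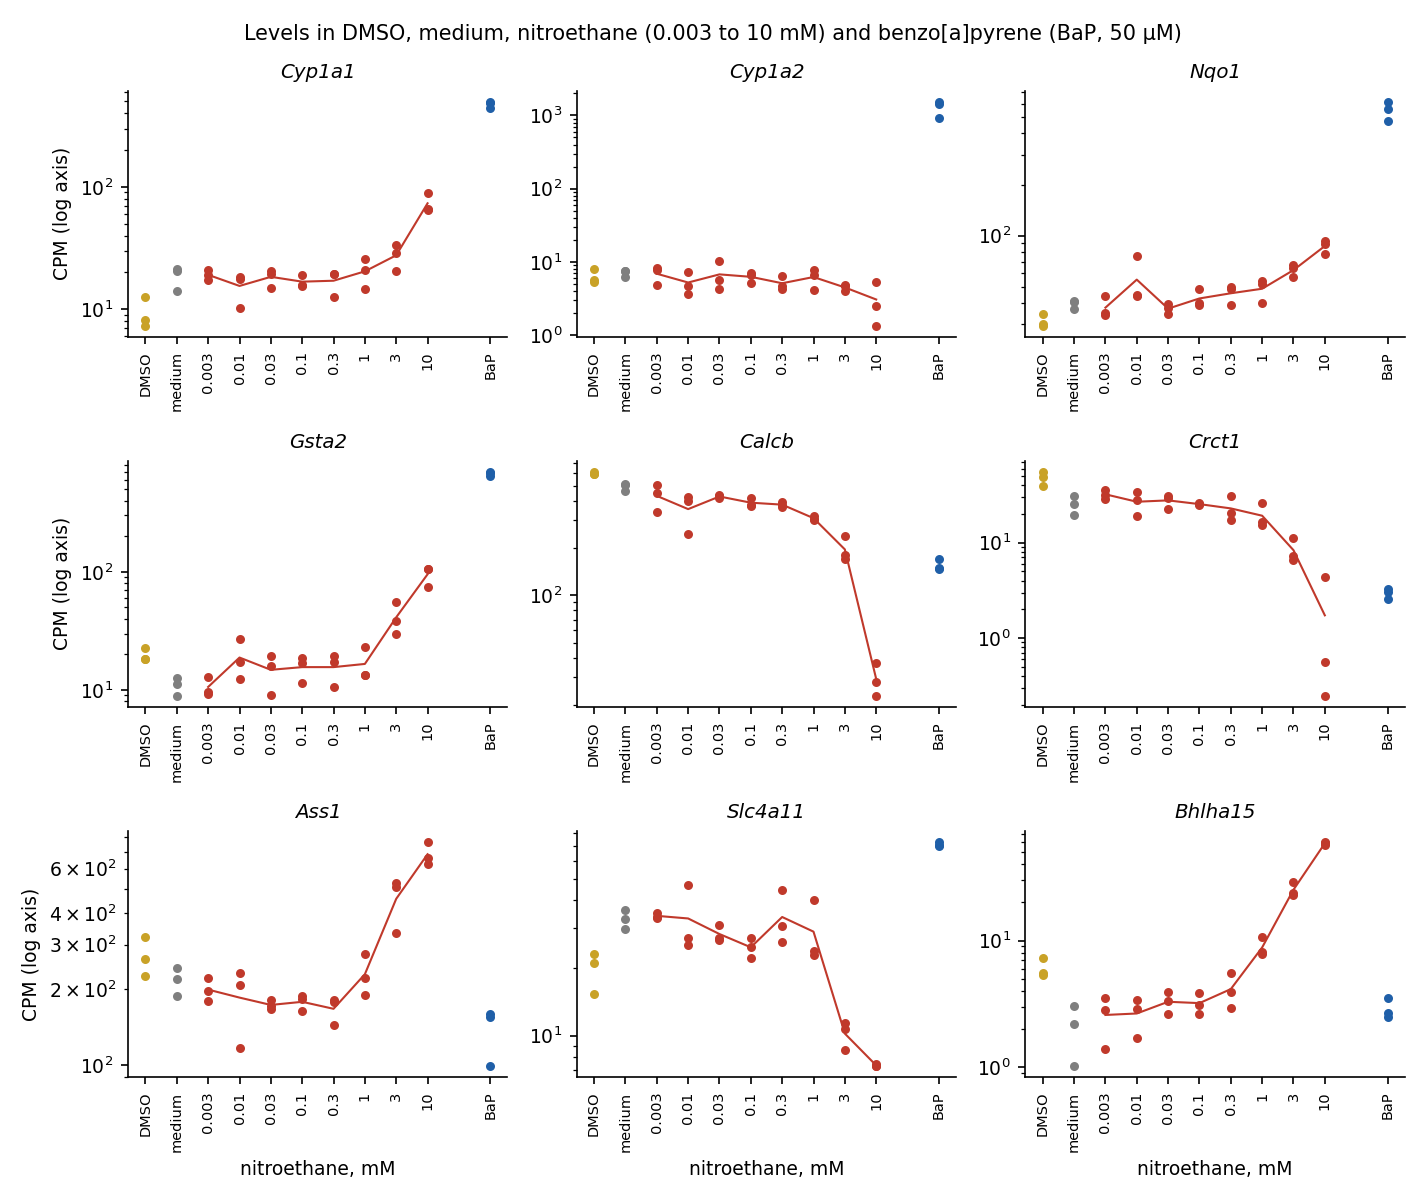
Level in CPM of 9 genes in DMSO, medium, NE at 0.003 to 10 mM and BaP at 50 µM; points are libraries and the line joins the means of 3. Cyp1a1, Nqo1 and Gsta2 rise towards 10 mM and stay below BaP, Calcb falls to under the BaP level at 10 mM, and Slc4a11 falls away from the raised BaP level.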

How the data were processed

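The deposited table holds raw counts for 22253 probes in 105 libraries, left without normalization by the authors; per the submitters' processing notes FastQC, Bowtie, R 3.5.3 and DESeq2 1.28.1 were used, with no role given, while a genome build and the version of the aligner are not given in the sources used. The labels name a human panel, but the symbols are rat symbols, and 15986 of 20946 were found in RefSeq (GRCr8). From the counts, CPM was computed over library totals. The 12 libraries were fitted together in edgeR 4.0.16 (R 4.3.3, limma 3.58.1) after filterByExpr (minimum count 10, total 15), with TMM factors, robust dispersions and quasi-likelihood F tests, and p-values were adjusted over all 11896 probes tested. The SE is the absolute log2 change over the square root of F, and 95% intervals use the normal quantile. The scripts were tested on simulated data. In the library totals used, a count of 3 equals 0.333 to 0.4 CPM, which limits low probes by counting error alone. Correlations of deviations from the group mean exceeded 0.1 in 5 of 18 same-number pairs of libraries (median 0.0607, highest 0.303). Among different-number pairs 3 of 36 did (median -0.025). Some weak pairing by number may therefore be present. The main fit used no block, and counts with a block are given at the end.

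The genes named were the 10 largest NE-to-BaP changes in each direction (mean of at least 10 CPM, groups not overlapping), the first 8 of each class called in all 4 comparisons, the 4 markers Cyp1a1, Nqo1, Calcb and Crct1, every AhR list member, and up to 4 called members of each other list by size of change. Some genes that meet these rules are not reported here. Members, lists and rules were chosen with earlier results of these data known. Alternatives were edgeR's relative log expression (RLE) size factors, DESeq2 1.42.0, no filter, only the groups compared, a replicate block and leaving out each library. Ranking without NE replicate 2 was added after seeing the data.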

Additional observations from a re-analysis of the deposited data

How the results depend on the processing

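The alternatives that kept all libraries were RLE size factors, DESeq2, no filter, only the groups compared and the replicate block. Under these every count of calls stayed within 1.5 times its value except that of medium against DMSO. That count was 389 with all 12 libraries and 1139 when only those 2 groups were fitted. No called NE-to-BaP difference of a named gene turned its direction. The cause of the larger count was not tested. NE against BaP gave 3706, 3887, 3769, 2499 and 3977 calls in that order, and BaP against DMSO 570, 711, 565, 717 and 677. With the replicate block the probes called in all 4 comparisons were 115 up in both and 168 down in both. The opposite calls were 18 up in NE with BaP down and 24 down in NE with BaP up, and medium against DMSO gave 524. Of the single-gene NE-to-BaP values under the alternatives, 1855 were counted as unchanged, 113 lost the call and 3 gained it. Unchanged included a change of sign where neither fit gave a call, and a kept sign where no adjusted p was given. Cyp2f4, for example, was -0.09 with all libraries and 0.05 without NE replicate 2. Leaving out each library in turn, the counts of calls ranged from 2798 to 3900 for NE against BaP, 3634 to 4974 for NE against medium, 2796 to 4337 for NE against DMSO, 305 to 968 for BaP against DMSO, 877 to 2207 for BaP against medium, 150 to 745 for medium against DMSO, 1673 to 2902 for the difference between the effects with NE against medium and BaP against DMSO (2374 with all libraries), and 1260 to 2427 with the controls swapped (1804). For calls in all 4 comparisons the ranges were 56 to 153 up in both, 74 to 237 down in both, 7 to 24 up in NE with BaP down and 8 to 32 down in NE with BaP up. With NE against medium beside BaP against DMSO they were 77 to 208, 90 to 303, 19 to 66 and 24 to 80, and with the controls swapped 181 to 426, 239 to 543, 37 to 130 and 71 to 145. Crct1 was called lower in NE than in BaP with no filter (-0.92) and without NE replicate 2 (-2.71). In NE replicate 2, probes at 0 in the other 11 libraries had a median of 1.6 CPM, which limits low levels in NE.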
